A study of Mus musculus with 7 samples.

Results

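The H2 genes are the mouse major histocompatibility complex (MHC) genes on chromosome 17. Genes of the mm9 annotation (GENCODE) on this chromosome whose symbol starts with H2- were taken, which gave 42 of the 37310 genes in the annotation. They comprised 30 class I genes, 10 class II genes, and H2-Ke2 and H2-Ke6, which lie among them but encode no MHC molecule. Each gene was extended by 20 kb on either side, which gave 15 merged windows of 1343 kb in all, and every CTCF or Rad21 peak that overlapped a window was kept. This left 93 of 68667 CTCF peaks and 65 of 68656 Rad21 peaks. Rad21 is a subunit of cohesin. The peaks were called on chromatin from liver of female CD-1 mice (Crl:CD1(ICR), an outbred stock) aged 8 weeks, in 4 CTCF and 3 Rad21 ChIP-seq libraries. Libraries of each antibody had been pooled before peak calling, so there are no replicates, no SD and no test in what follows, and the lists carry no read counts from which a depth could be taken. Peaks where both factors overlapped by at least 1 bp are called CAC (cohesin-and-CTCF), CTCF peaks without Rad21 are called Lone CTCF, and Rad21 peaks without CTCF are called CNC (cohesin-non-CTCF). Fold enrichment is the value at the peak summit over the local background, and it is compared only within a list.

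Class I molecules present peptides from inside the cell to CD8+ T cells and are made by most cells, hepatocytes included. The classical class I genes of this annotation are H2-K1 and H2-D1, while the Q, T and M series are non-classical and include the liver-secreted H2-Q10. Class II molecules (A and E) present peptides from outside the cell to CD4+ T cells on antigen-presenting cells such as Kupffer cells, dendritic cells and B cells. H2-DM loads the peptides onto class II molecules and H2-O modulates H2-DM. CTCF binds a directional DNA motif, and cohesin, which extrudes DNA loops, is held up where it meets CTCF. Whole liver was used, so fewer cells with a bound site and less binding per cell cannot be told apart.

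Motif sequences at strong class II and class I sites are shown first, because most of the strong peaks described below carry one. Each line gives 30 bases 5′ to 3′ on the motif strand. Capitals mark the 20 bases that matched a CTCF motif learned from strong peaks on odd-numbered autosomes other than chromosome 17 (consensus TGGCCACCAGGGGGCGCTAG), and the mm9 coordinates are those of the capitals.
H2-DMa promoter, chr17:34272361-34272380, plus strand: ccgacCTTCCACCAGGGGGCGGAGGtctcc
H2-Ob upstream, chr17:34372110-34372129, minus strand: ttacaTGGCCACCAGATGGCACCAGactca
H2-Ea-ps upstream, chr17:34486555-34486574, minus strand: acgaaTGACCAGTAGATGGCGGAATtgaca
H2-Oa downstream, chr17:34238600-34238619, plus strand: ataaaTCCCCACCAGGGGGCGCTCGcgtgt
H2-Q10 downstream, chr17:35621196-35621215, plus strand: cctagAGGACACTAGGGGGCGCGCTgagct
H2-K1 downstream, chr17:34128951-34128970, minus strand: cctgtCTGCCAGTAGAGGGCGCCAGatctc

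Among class I genes the same motif sequence recurred from gene to gene. The sequences below are grouped where at least 26 of the 30 bases were identical between 2 sites, and they are shown because they include strong sites of several genes.
Downstream of H2-K2, chr17:34105624-34105643, plus strand: gctcaTGGCCACGAGGGGGCAGCAGgacac
Downstream of H2-D1, chr17:35411888-35411907, minus strand: gctcaAGGCCGCCAGGGGGCAGCAGgacac
Upstream of H2-Q2, chr17:35439105-35439124, minus strand: gagcaCGGCCGCCAGGGGGCAGCAGgacac
Upstream of H2-Q6, chr17:35557606-35557625, plus strand: tgtttCTTCCACCAGGCGGCGCCGTtgccc
Upstream of H2-Q10, chr17:35602813-35602832, plus strand: tgtttCTTCCACCAGGCGGCGCTGTtgccc
Downstream of H2-T22, chr17:36172452-36172471, minus strand: cagggTGGCCACCAGGTGGCAGTTTgctcc
Downstream of H2-T10, chr17:36251404-36251423, minus strand: cagggTGGCCACCAGGTGGCAGTGTgctcc
Downstream of H2-Bl, chr17:36197967-36197986, minus strand: cagaaACACCAGTAGGTGGCGCTGTgagct
Upstream of H2-T9, chr17:36269018-36269037, minus strand: cagaaACACCAGCAGGAGGCGCTGTgagtt
Upstream of H2-T3, chr17:36330684-36330703, minus strand: cagaaGCACCAGCAGGTGGCGCTGTgagct
Downstream of H2-M10.3, chr17:36494658-36494677, plus strand: acaggAGACCAGAAGGTGGCAACAGacatc
Downstream of H2-M10.5, chr17:36923730-36923749, minus strand: acaggAGACCAGAAGGTGGCAACAGacatc
Downstream of H2-M10.6, chr17:36961254-36961273, minus strand: actggAGACCAGAAGGTGGCAACAGacatc

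Rad21 overlapped 66 of the 93 CTCF peaks in the windows, or 71.0% (95% Wilson interval from 61.1 to 79.2%), which left 27 Lone CTCF peaks. The share over all autosomal CTCF peaks was 73.8%, inside that interval. Of the 65 Rad21 peaks, 62 were CAC (95.4%, 87.3 to 98.4%), compared with 73.4% of all autosomal Rad21 peaks. CNC peaks were therefore few, with 3 in the windows, or 4.62% of the Rad21 peaks (1.58 to 12.7%), beside 26.6% of the autosomal list. In the stretches of chromosome 17 between the windows, from H2-Ke2 to H2-M2, 26 of 147 Rad21 peaks were CNC (17.7%, 12.4 to 24.7%). Intervals here cover counting error only. The median fold enrichment in the windows was 5.55 for CTCF (95% interval from order statistics 4.71 to 7.81) and 5.81 for Rad21 (4.48 to 7.77), beside autosomal medians of 6.03 and 4.91.

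**Figure D1:**
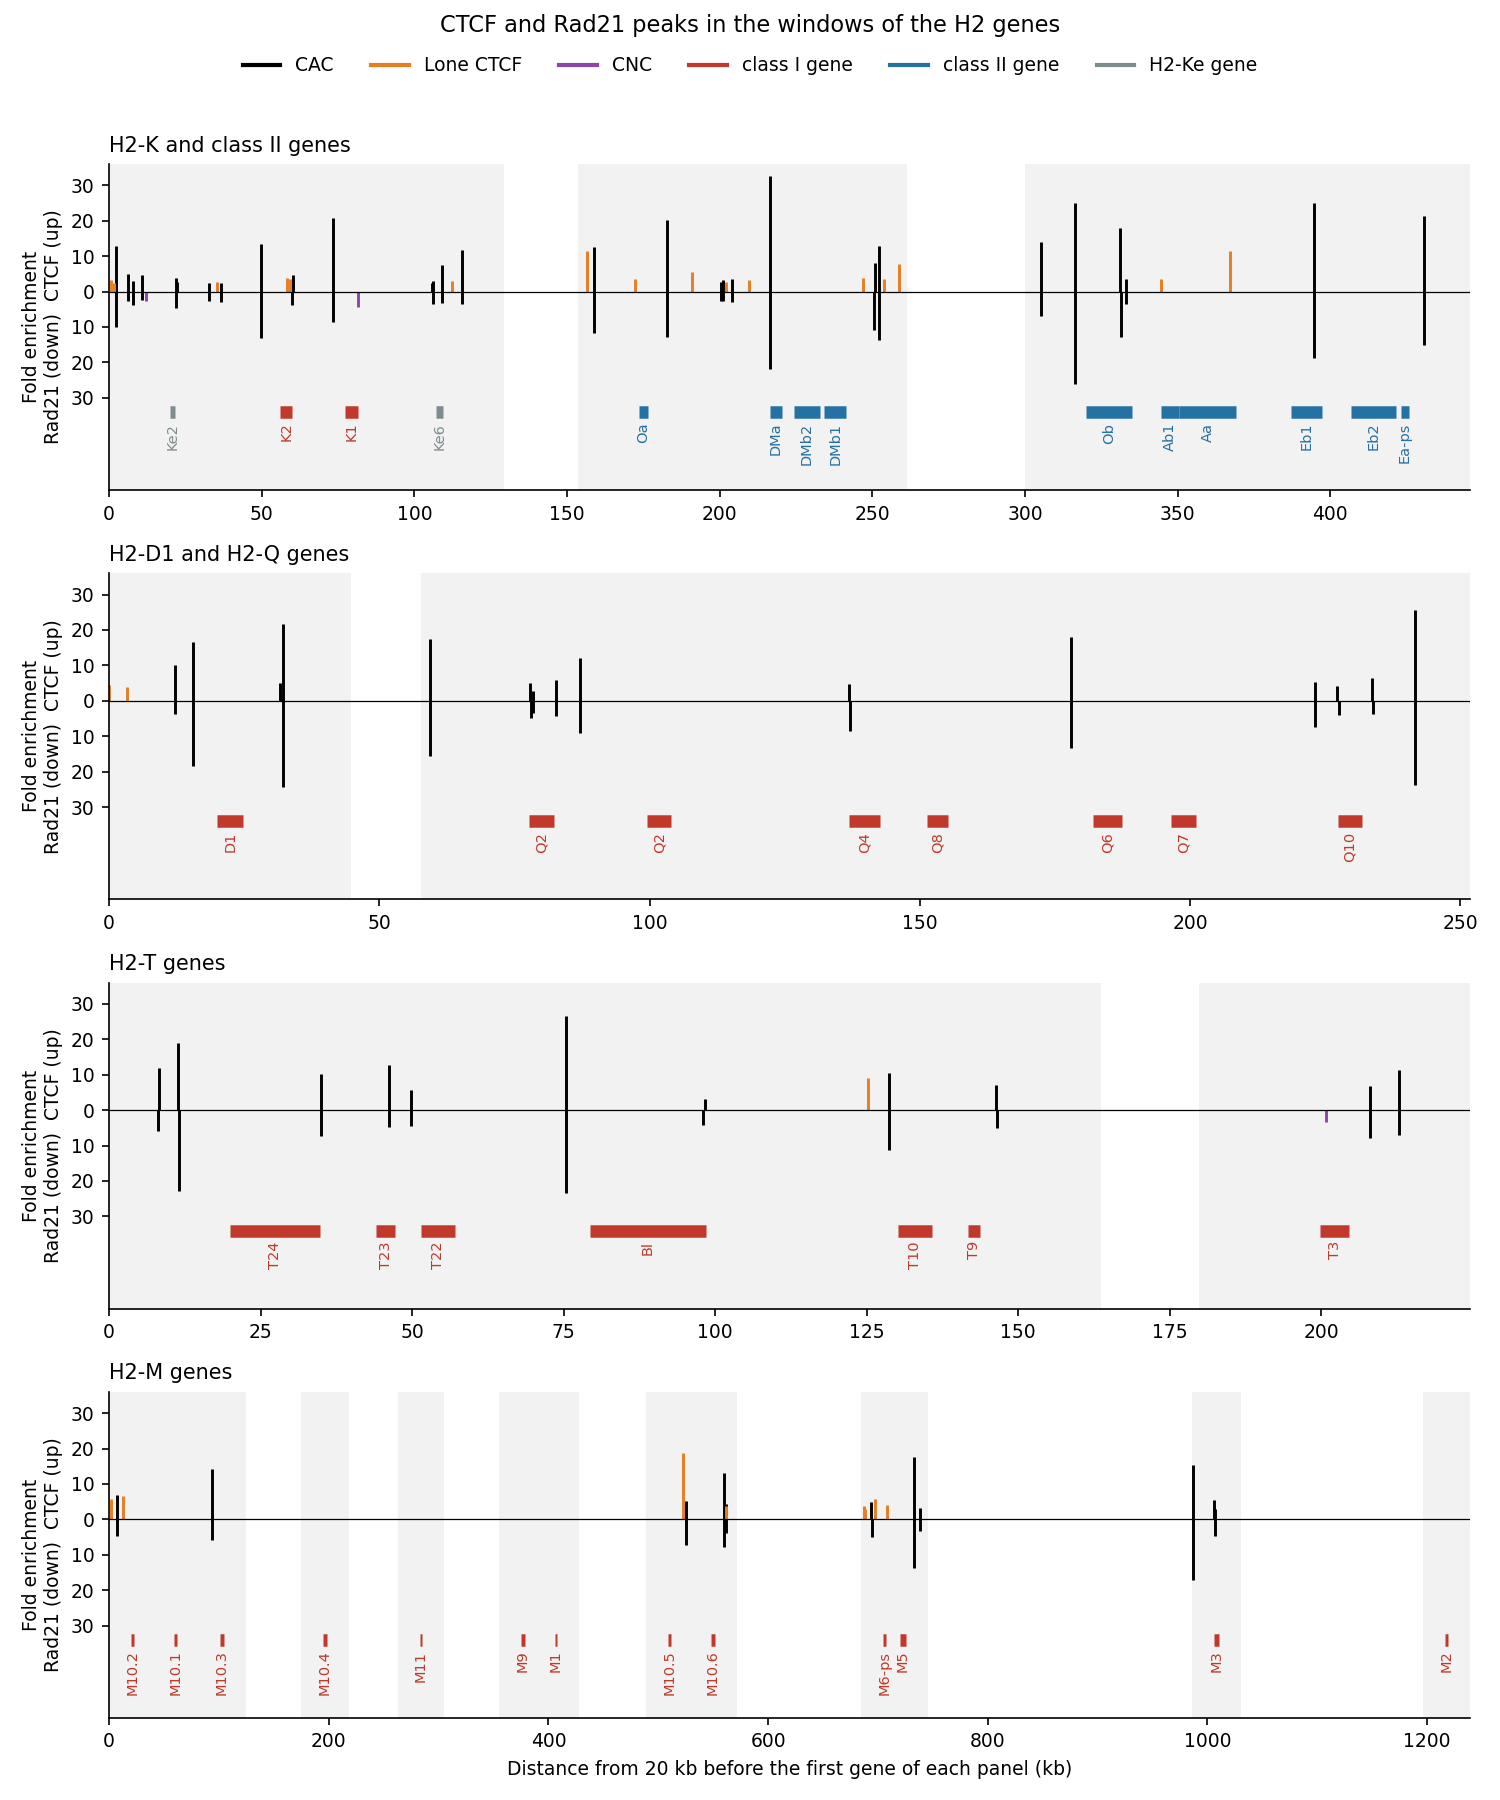
CTCF fold enrichment (upward lines) and Rad21 fold enrichment (downward lines) at the summit of each peak in the H2 windows, against the distance in kb from 20 kb before the first gene of each panel. Grey bands are the windows, and peaks outside them are not drawn. The tallest CTCF line, at 32.7, stands at H2-DMa, and the windows of H2-M10.4, H2-M11, H2-M9 with H2-M1, and H2-M2 are empty.

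At the class II genes the site of highest CTCF fold enrichment was the promoter of H2-DMa, the alpha chain of the peptide-loading molecule. Its CTCF peak, chr17:34272081-34272580, had a fold enrichment of 32.7, the highest in the windows and exceeded by 26 of the 67010 autosomal CTCF peaks. The Rad21 peak there had a fold enrichment of 21.8 with its summit 33 bp away. The CTCF summit lies 217 bp into the gene, in an exon, and the motif printed above is on the strand of the gene. A CTCF peak with a fold enrichment of at least 20 at the promoter is uncommon, with 3.69% of 21418 autosomal protein-coding genes having one.

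Few of the other class II promoters had a peak. Within 1 kb of the gene start, 2 of the 10 class II genes had a peak of either factor (Wilson interval of the share 5.67 to 51.0%), beside 54.1% of autosomal protein-coding genes. The count was 4 within 2.5 kb of the start, beside 59.97% of autosomal protein-coding genes. It was 1 where −log10 q of at least 10 or a fold enrichment of at least 5 was required, beside 47.8% and 38.1%. No interval was taken at these settings, so with 10 genes the counts there were not shown to lie below the autosomal shares. Within 1 kb, the gene besides H2-DMa was H2-Ab1, the beta chain of the A molecule. It had a weak Lone CTCF peak of fold enrichment 3.57 and −log10 q of 6.32, 91 bp into the gene and without a motif. H2-Aa and H2-Eb1 (the A alpha and E beta chains), H2-Eb2, H2-Ea-ps (a pseudogene in this annotation), H2-Oa, H2-Ob, H2-DMb1 and H2-DMb2 had none. At 9 of the 10 class II genes the start was within 20 kb of a CAC summit, beside 75.2% of autosomal protein-coding genes, with a median distance of 8603 bp and a range from 217 bp at H2-DMa to 25799 bp at H2-Aa. Over autosomal protein-coding genes the median distance was 2087.5 bp (quartiles 195 and 19726 bp). The class I genes were similar to the class II genes here, with 24 of 30 starts within 20 kb and a median of 7987 bp.

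Other strong class II peaks lay between and inside the genes. The pair around H2-Ob consisted of a CAC peak 3747 bp upstream, with fold enrichments of 24.9 for CTCF and 26.1 for Rad21, and one in an intron 11154 bp into the gene, with 18.0 for CTCF and 12.8 for Rad21. The Rad21 value upstream of H2-Ob was the highest in the windows, and its motif is the one printed above on the minus strand. A second intronic peak of H2-Ob, 12875 bp into the gene, was weak in both lists (3.48 for CTCF and 3.45 for Rad21). The site 5003 bp upstream of H2-Ea-ps, the last of the class II genes, had 21.3 for CTCF and 14.99 for Rad21. After the second H2-Ob intron peak no CAC peak was called over 61848 bp, a stretch that holds H2-Ab1 and H2-Aa. Its peaks were the weak one at H2-Ab1 and a Lone CTCF peak in an intron of H2-Aa, with a fold enrichment of 11.5 and a motif on the minus strand.

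On the other side of H2-DMa, the peak 9298 bp from the start of H2-Oa, past the end of the gene, had 20.1 for CTCF and 12.7 for Rad21. Upstream of H2-Oa, a CAC peak at 14580 bp (CTCF 12.5, Rad21 11.7) stood close to a Lone CTCF peak of nearly equal CTCF fold enrichment (11.5) at 16880 bp. Both carried a motif on the plus strand, so a strong CTCF peak with a motif was called with Rad21 at one of these neighbours and without it at the other. Downstream of H2-DMb1, CAC peaks at 16452 and 17854 bp from the start had CTCF values of 8.04 and 13.0 and Rad21 values of 10.9 and 13.8. In or near Brd2, a gene between H2-Oa and H2-DMa, 3 CAC peaks had CTCF fold enrichments from 2.62 to 3.42. Another CAC peak, 14715 bp upstream of H2-Ob, had 14.0 for CTCF and 6.80 for Rad21 and no motif. It was also the only class II peak of the CTCF list in which some of the sequence was repeated, with 27.4% of its 50-base stretches occurring more than once in the genome. The other 7 Lone CTCF peaks nearest a class II gene, not yet named, had fold enrichments from 2.83 to 7.81. In the windows of the class II genes, in order from H2-Oa to H2-Ea-ps, the 8 CAC peaks with a motif had 4 on the plus strand, then minus, plus, minus and minus.

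Of the 30 class I genes, 10 had a peak of either factor within 1 kb of the start (33.3%, Wilson interval 19.2 to 51.2%), beside the same 54.1%. CTCF was listed at 9 of the 30 promoters and Rad21 at 9, beside 50.9% and 50.5% of autosomal protein-coding genes, and a CAC peak at 8, beside 46.8%. At the stricter limits on −log10 q and fold enrichment, 6 and 5 of the 30 had a peak of either factor, beside 47.8% and 38.1%. Among the 25 class I genes annotated as protein-coding, 7 had a peak. The intervals for class I and class II overlap, and both shares are below the 54.1% over autosomal genes. The 12 CTCF peaks at class I promoters had a median fold enrichment of 4.47 (range 2.75 to 12.7) and the 10 Rad21 peaks had a median of 4.48 (range 3.48 to 8.46). Peaks at autosomal protein-coding promoters had medians of 5.29 for CTCF and 4.61 for Rad21. Only 1 of these 12 CTCF peaks had a motif at its summit, at H2-M6-ps. Over even-numbered autosomes 14.2% of CTCF peaks at protein-coding promoters and 51.3% of those elsewhere had one. In the windows the shares were 17.6% of 17 peaks at H2 promoters (6.19 to 41.0%) and 61.8% of 76 peaks elsewhere (50.6 to 71.9%).

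Of the classical class I genes, H2-K1 had a promoter peak and H2-D1 had none. These are too few genes to set against the 54.1% over autosomal protein-coding genes. H2-K1 had a CNC peak, chr17:34136976-34137208, 109 bp into the gene, with a Rad21 fold enrichment of 4.31 and −log10 q of 8.19. No CTCF peak was listed there, a combination found at 3.23% of autosomal protein-coding promoters. At H2-D1 neither list had a peak within 1 kb of the start. Its nearest CAC peak was 4414 bp upstream, with 16.6 for CTCF and 18.4 for Rad21, and the strongest was 12240 bp from the start, past the end of the gene, with 21.7 for CTCF and 24.3 for Rad21. H2-K1 had a CAC peak 8297 bp from its start, also past the end of the gene, with 20.7 for CTCF and 8.63 for Rad21 and summits 1 bp apart. The K and D genes thus had strong shared peaks outside the gene and no CAC peak at the start. The pseudogene H2-K2 differed, with a CAC peak 109 bp upstream (CTCF 4.67, Rad21 3.82) and a Lone CTCF peak 720 bp into the gene (3.57). H2-L is not in this annotation.

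In the Q series, all 11 CTCF peaks of the window were CAC. Promoter peaks were called at 3 of 7 genes. H2-Q10, which encodes the secreted class I molecule of liver, had 4.26 for CTCF and 3.98 for Rad21 at 188 bp upstream, with summits 402 bp apart. H2-Q4 had 4.81 for CTCF and 8.46 for Rad21, 95 bp into the gene. The symbol H2-Q2 is given to 2 genes in the annotation, and the one with identifier ENSMUSG00000079507 had 2 CAC peaks at 224 and 830 bp, with CTCF values of 5.09 and 2.75, while ENSMUSG00000091705 had none. Stronger peaks lay outside the Q genes. The site 14170 bp from the start of H2-Q10 had 25.6 for CTCF and 23.9 for Rad21, that 18233 bp upstream of the first H2-Q2 gene had 17.3 and 15.7, and that 4138 bp upstream of H2-Q6 had 18.0 and 13.4. H2-Q8, H2-Q6 and H2-Q7 had no peak in the gene or at the promoter. These are the genes with the most repeated promoter sequence, as from 53.3 to 59.9% of their 50-base stretches recur in the genome, while the median over 1091 protein-coding promoters of chromosome 17 was 0.307%. Because only uniquely mapped reads had been kept, reads from such sequence are not counted, and their part in the missing peaks was not tested.

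The T series had promoter peaks at 3 of 7 genes. H2-T24 had 10.3 for CTCF and 7.21 for Rad21, 142 bp upstream. H2-T23, which encodes Qa-1, had 12.7 for CTCF and 4.64 for Rad21, 975 bp into the gene in an exon. Its CTCF value was the highest at a class I promoter, and 24.3% of its 50-base stretches recur. H2-Bl had 3.02 for CTCF and 4.15 for Rad21, 193 bp into the gene. H2-T22 and H2-T10, which encode ligands of gamma delta T cells, and H2-T9 and H2-T3 had none at the promoter. In H2-T3, 3771 bp into the gene in an exon, was a weak CNC peak (3.32), and the third CNC peak of the windows was in an exon of Rgl2 (2.79). The class I peak of highest CTCF fold enrichment lay 23161 bp from the start of H2-Bl, past its end, with 26.6 for CTCF and 23.3 for Rad21, the summits at the same base. Beyond H2-T24, a peak 23432 bp from its start had 18.9 for CTCF and 22.8 for Rad21. The CAC motifs from H2-T22 to H2-T3, 6 in all, were on the minus strand, after a minus and a plus at the end near H2-T24.

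The M series was the sparsest. A promoter peak was called at 2 of 13 genes, H2-M3, which presents formylated peptides, and the pseudogene H2-M6-ps. H2-M3 had CAC peaks 355 and 833 bp into the gene, with CTCF values of 5.36 and 2.89 and 1 overlapping Rad21 peak of 4.81. At H2-M6-ps there was a Lone CTCF peak of 4.12, 843 bp upstream. None of the 6 H2-M10 genes, whose products associate with vomeronasal receptors, had one. H2-M10.1, H2-M10.4, H2-M11, H2-M9, H2-M1 and H2-M2 had no peak of either factor within 20 kb of the gene. Their starts were between 31609 bp (H2-M10.1) and 212499 bp (H2-M2) from the nearest CAC summit. The gap of 307763 bp between neighbouring CAC summits, the longest from H2-Ke2 to H2-M2, contains H2-M10.4, H2-M11, H2-M9 and H2-M1. The strongest Lone CTCF peak of all windows was also in the M series, 13851 bp from the start of H2-M10.5, with a fold enrichment of 18.7. The strongest CAC peaks of the series were 7677 bp upstream of H2-M5 (CTCF 17.6, Rad21 13.6) and 19477 bp upstream of H2-M3 (15.4 and 17.02). H2-Ke2 and H2-Ke6, which encode a prefoldin subunit and a steroid dehydrogenase, both had CAC peaks at the start, with CTCF values of 3.85 and 7.38.

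**Figure D2:**
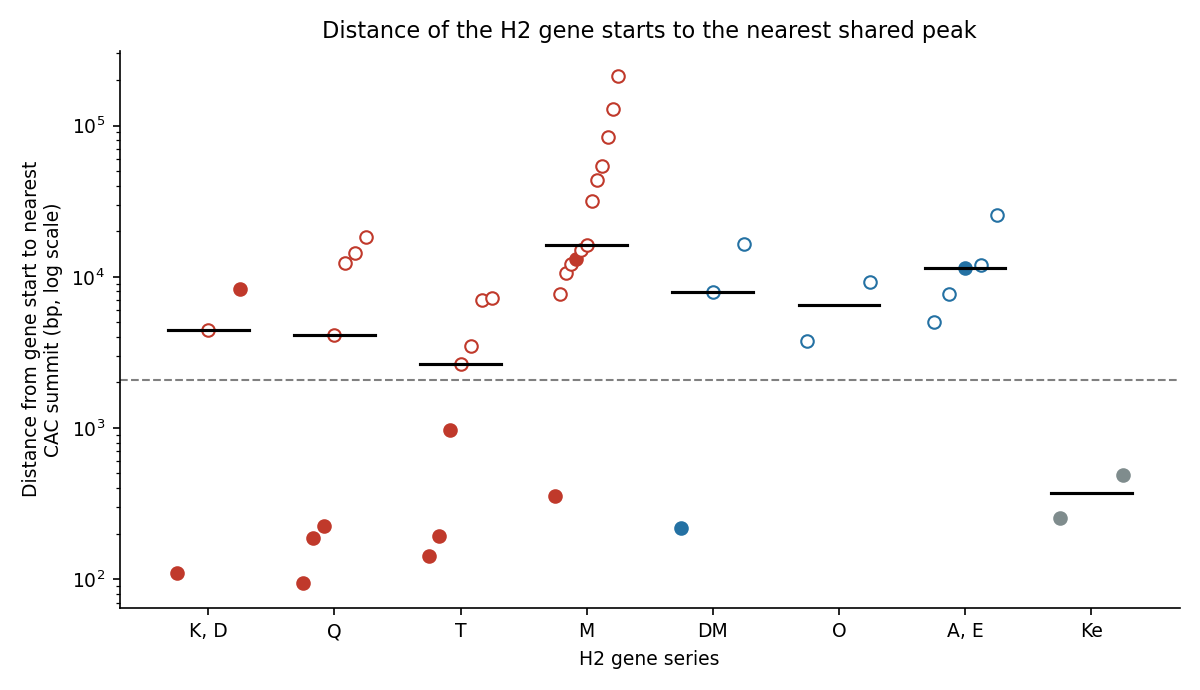
Distance in bp (log scale) from the start of each H2 gene to the nearest CAC summit, by series, with class I in red, class II in blue and H2-Ke genes in grey. Filled points have a peak of either factor within 1 kb, black bars are medians, and the dashed line is the median of autosomal protein-coding genes, 2087.5 bp. The M series has the highest median, 16193 bp, and the T series the lowest median of the MHC series, 2645 bp.

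The 12 CAC peaks of highest CTCF fold enrichment, all of 18.0 or more, were divided equally between the classes, with 6 nearest a class I gene and 6 nearest a class II gene. All 12 had a motif, 6 on each strand. H2-DMa was the only one at an H2 promoter, and 3 of the 12 were within an H2 gene. Their Rad21 fold enrichments ran from 8.63 to 26.1 and their summits were at most 68 bp apart. CAC peaks nearest a class II gene had a median CTCF fold enrichment of 13.5 (n = 14, interval 3.42 to 24.9) and those nearest a class I gene 8.60 (n = 40, interval 5.36 to 12.7). For Rad21 the medians were 12.2 (n = 14, interval 2.83 to 18.8) and 7.05 (n = 38, interval 4.81 to 8.63). The class II intervals contain the class I medians, so the classes were not separated at this number of peaks, and neighbouring peaks are not replicates. Of the CTCF peaks, 14 of 24 nearest a class II gene were CAC (58.3%, 38.8 to 75.5%), as were 40 of 53 nearest a class I gene (75.5%, 62.4 to 85.1%).

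**Figure D3:**
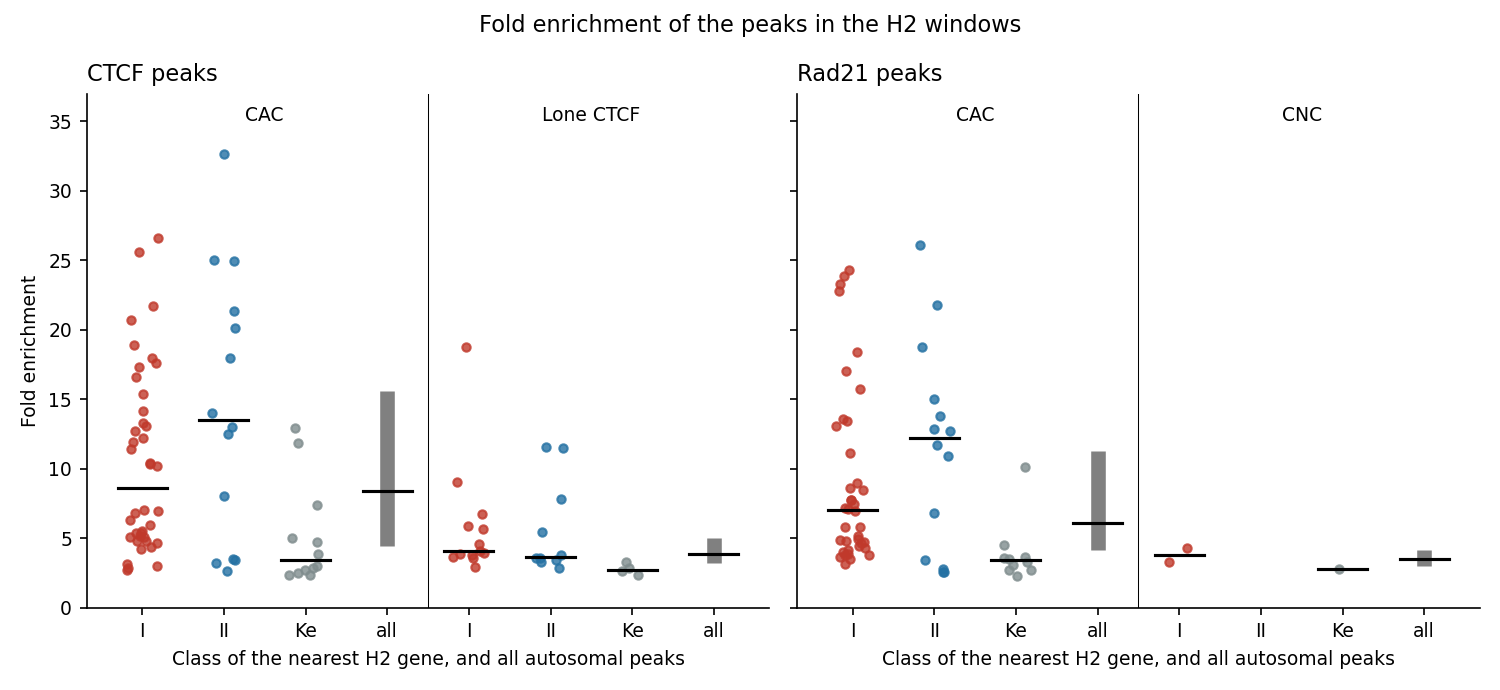
Fold enrichment of each peak in the H2 windows for CTCF (left) and Rad21 (right), by peak class and by the class of the nearest H2 gene. Black bars are medians, and grey bars are the interquartile range of all autosomal peaks of that class. Class II CAC peaks fall into a group between 2.62 and 3.48 and a group of 8.04 or more for CTCF, and no CNC peak is nearest a class II gene.

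A motif was found within 100 bp of the summit at 50 of the 93 CTCF peaks (53.8%, 43.7 to 63.5%), beside 44.8% of CTCF peaks on even-numbered autosomes. By peak class it was 34 of 66 CAC peaks (51.5%, 39.7 to 63.2%), beside 46.4%, and 16 of 27 Lone CTCF peaks (59.3%, 40.7 to 75.5%), beside 40.1%. Of the 10 Lone CTCF peaks nearest a class II gene, 8 had one. Summits of the 2 factors were within 100 bp of each other at 50 of the 66 CAC peaks (75.8%, 64.2 to 84.5%), beside 82.4% of autosomal CAC peaks.

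The peaks with a recurring motif sequence were all nearest a class I gene. Of the 50 motifs, 15 had another with at least 26 of 30 bases identical within the windows (30.0%), in 6 groups. All 15 were among the 29 motifs nearest a class I gene, and none were among the 16 nearest a class II gene. On even-numbered autosomes 12.3% of 13650 motifs had such a partner within 4 Mb, as did 243 of the 1339 motifs on chromosome 17 itself. The sites downstream of H2-T22 and H2-T10 differed at 1 base of 30 and lay 7249 and 7041 bp from the gene start, on the strand of the gene in both. At both, 49.8% of the 50-base stretches within 150 bp recur in the genome. Their CTCF fold enrichments were 5.55 and 10.4 and their Rad21 fold enrichments 4.48 and 11.1. The sites upstream of H2-T9 and H2-T3, at 2645 and 3487 bp, had CTCF values of 7.01 and 6.82, while the related site past the end of H2-Bl had the 26.6 given above. Each of these 3 sites lay in sequence with no repeated 50-base stretch.

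The sites past H2-K2 and H2-D1, 10099 and 12240 bp from the gene start, shared 27 of 30 bases and were both on the strand opposite to the gene, with CTCF values of 13.3 and 21.7. The H2-D1 site shared 27 bases with the site upstream of H2-Q2 as well. In the M series, the sites of H2-M10.3 and H2-M10.5 were identical over all 30 bases and that of H2-M10.6 differed at 1. They lay 10653, 13851 and 12118 bp from the gene start, each opposite to the gene. CTCF fold enrichments were similar, at 14.2, 18.7 and 13.1, yet Rad21 peaks were called at H2-M10.3 (5.81) and H2-M10.6 (7.77) and not at the H2-M10.5 site, where the next CAC peak of the same gene (CTCF 5.08, Rad21 7.13) stood 16193 bp from the start. Identical motif sequence thus occurred at a CAC peak and at the strongest Lone CTCF peak of the windows.

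Copies of the recurring sequences were then looked for in all windows, with or without a peak. The sequence upstream of H2-Q6 and H2-Q10 was present at 6 genes, from 3302 to 4212 bp upstream of H2-K1, H2-K2, H2-Q8, H2-Q6, H2-Q7 and H2-Q10, always on the strand of the gene. The 30 bases were the same at 5 of these genes and differed at 1 base at H2-Q6. A CTCF peak and a Rad21 peak were called at H2-Q6 (18.0 and 13.4) and H2-Q10 (5.36 and 7.46) and at none of the other 4. Within 150 bp of the copy, 47.0% of 50-base stretches recur at H2-Q8 and 41.8% at H2-Q7, beside 29.9% at H2-Q6 and 6.38% at H2-Q10. At H2-K1 and H2-K2 the values were 12.4% and 16.7%, and no peak was listed there. The part of repeated sequence in these differences was not tested. The mm9 sequence is that of C57BL/6 mice, and whether the CD-1 mice carried the same bases is not known from these lists.

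All copies of 4 other groups had a CTCF peak, with 3 of 3 for the group of H2-K2, H2-D1 and H2-Q2, 2 of 2 for H2-T22 and H2-T10, 3 of 3 for H2-Bl, H2-T9 and H2-T3, and 3 of 3 for the H2-M10 genes. These groups were found through their peaks, so a high share was to be anticipated. The last group was of another kind. Its motifs, at Lone CTCF peaks near H2-M10.2 (6.73) and H2-M6-ps (4.12), had 67 copies spread over the windows of both classes, of which 3 lay in a CTCF peak and none in a Rad21 peak.

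**Figure D4:**
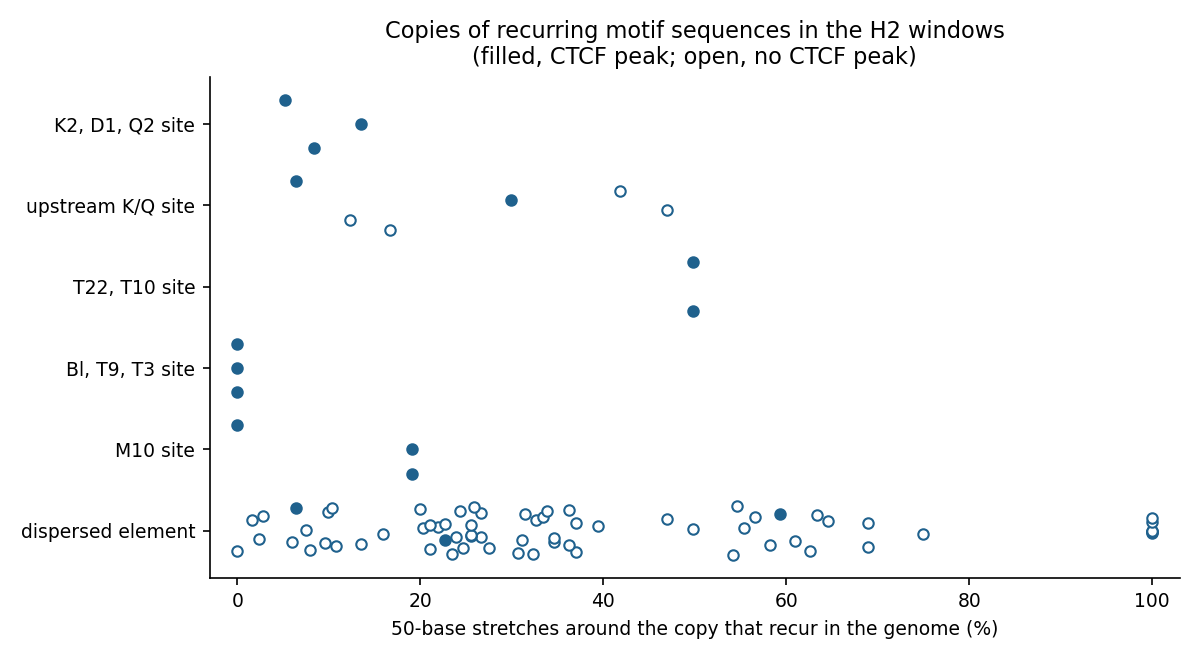
Share of 50-base stretches within 150 bp of each copy that recur in the genome (horizontal axis, %), for every copy of the 6 recurring motif sequences in the H2 windows. Filled points have a CTCF peak and open points have none, and the vertical offset within a row only separates points. At the upstream site of the K and Q genes the copies with a peak stand at 6.38 and 29.9%, on either side of 2 copies without one at 12.4 and 16.7%.

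Shared peaks were dense around the H2 genes other than the M series. CAC peaks numbered 4.92 per 100 kb in the windows, beside 2.001 per 100 kb of the autosomes and 5.31 per 100 kb in the stretches of chromosome 17 between the windows. The high density was therefore shared with the neighbouring genes. By region the density was 11.6 around the K and Ke genes, 5.52 around the class II genes and 3.85 around the D, Q, T and M genes. The last value pools series that differed. The H2-D1 window had 8.935 and the window of the Q genes 5.665. The windows of the T genes had 5.497 and 4.473, and those of the M genes from 0 to 6.777. Over whole spans, with peaks between windows, it was 6.842 from H2-Oa to H2-Ea-ps, 6.353 from H2-D1 to H2-Q10 and 4.898 from H2-T24 to H2-T3. From H2-M10.2 to H2-M2 it was 2.017, close to the autosomal 2.001. The median gap between neighbouring CAC summits of one window was 10513 bp (55 gaps, interval 4138 to 15957 bp), beside 16593.5 bp over 49448 autosomal gaps. With −log10 q of at least 10 or a fold enrichment of at least 5 required, it was 21589.5 or 23878 bp, and its intervals (14083 to 34125 and 15957 to 36021 bp) contained the autosomal medians of 25515.5 and 35540 bp. A window limits the gaps that can be seen in it, so gaps were also taken over whole spans with the peaks between windows. From H2-Ke2 to H2-Ea-ps the median was 10356 bp (34 gaps, 247 to 61848 bp), from H2-D1 to H2-Q10 it was 6551 bp (15 gaps, 606 to 49867 bp), from H2-T24 to H2-T3 it was 20307 bp (10 gaps, 3286 to 61704 bp), and from H2-M10.2 to H2-M2 it was 23854.5 bp (24 gaps, 478 to 307763 bp). The intervals of the T and M medians (3618 to 30394 bp and 5457 to 45479 bp) contain the autosomal median, as does that of the D1 and Q median (3995 to 21128 bp), while that of the K and class II span (3006 to 13139 bp) lies below it. For the class II genes alone, from H2-Oa to H2-Ea-ps, the median was 10542 bp (19 gaps) and its interval of 1721 to 18074 bp contains the autosomal median. Over the full 3585 kb, which includes the gene-dense stretch between class II and H2-D1, the median was 11037 bp.

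Within the D and Q span the spacing was uneven. A gap of 606 bp fell in the first H2-Q2 gene and one of 697 bp past the end of H2-D1. From the last peak near the first H2-Q2 gene to the upstream site of H2-Q10 there were 3 successive gaps of 49867, 41000 and 45194 bp. These 3 gaps hold H2-Q4, H2-Q8, H2-Q6, H2-Q7 and the second H2-Q2 gene, and the window of the Q genes had 45.5% of its 50-base stretches repeated, compared with 5.56% and 10.1% in the windows of the class II genes.

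**Figure D5:**
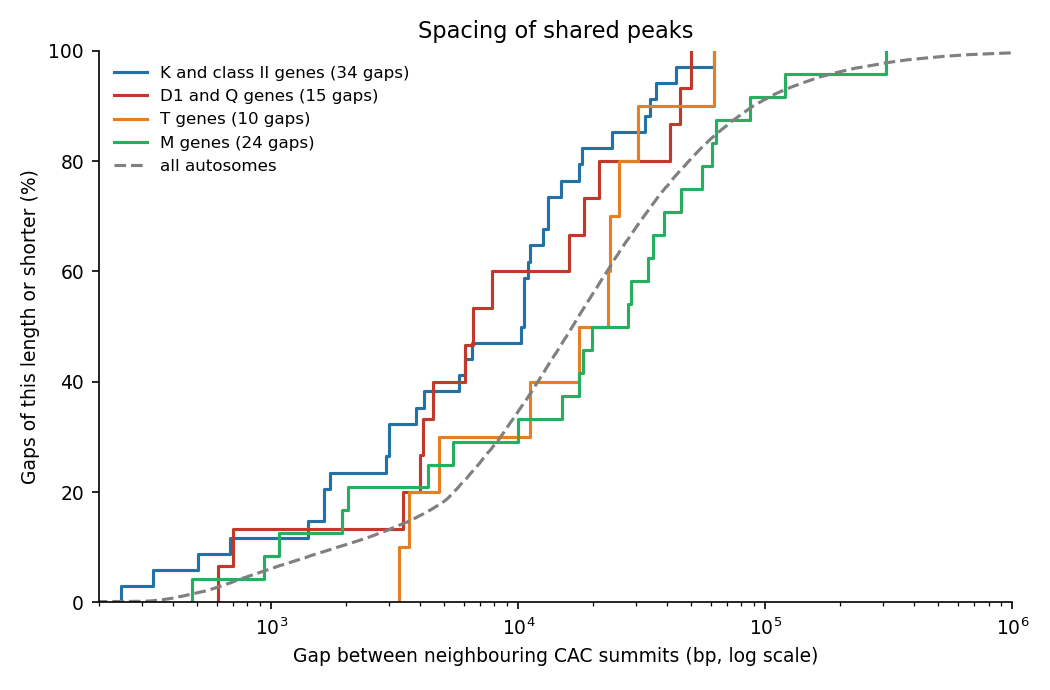
Cumulative share of gaps between neighbouring CAC summits (vertical axis, %) against gap length in bp (log scale), for 4 spans of H2 genes and for all autosomes (dashed). Gaps of the K and class II span and of the D1 and Q span are shorter than the autosomal ones through the middle of the range, with medians of 10356 and 6551 bp beside 16593.5 bp.

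Promoter peaks were also counted at other genes of antigen presentation. Of 20 listed genes, 19 were matched in the annotation (Nlrc5 was not), and 14 of the 19 had a peak of either factor within 1 kb of the start, beside 54.1% of autosomal protein-coding genes. All 14 had a CAC peak. Tap1 and Psmb9 entered this count through the same peaks. No interval was taken for it, so it was not shown to exceed the autosomal share. A CNC peak lay within 20 kb of 14 of the 19 genes, not all the same ones, beside 41.7% of autosomal protein-coding genes. For Tap1, Tap2, Psmb8 and Psmb9, 4 of these 14, it was the same pair of weak peaks. The peptide transporter genes Tap1 and Tap2 and the immunoproteasome genes Psmb8 and Psmb9 lie between H2-DMb1 and H2-Ob. Of these, Tap2 had the strongest promoter peak, with 18.8 for CTCF and 12.7 for Rad21. Tap1 and Psmb9 start back to back and shared a CAC peak of 6.28 for CTCF and 4.79 for Rad21, and Psmb8 had 3.95 and 3.75. In this stretch, which lies outside the H2 windows, 6 of 8 CTCF peaks and 6 of 8 Rad21 peaks were CAC, and the 2 CNC peaks, of 3.05 and 2.74, were at and upstream of Psmb8. B2m, the light chain of class I molecules, had 2.53 for CTCF and 4.89 for Rad21. The 5 genes without a promoter peak were Tapbp (tapasin), Ciita (the class II transactivator), Rfxap (a subunit of the RFX complex that binds class II promoters), Ctss (cathepsin S) and Ifi30.

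Promoter peaks were also counted at marker genes of liver cell types. A peak of either factor does not show which cells were present, and no intervals were taken for these small counts. They therefore do not check the tissue. Hepatocyte markers had a peak of either factor at 8 of 10 promoters, beside 54.1% of autosomal protein-coding genes, and 9 of 10 had a CNC peak within 20 kb of the gene, beside the same 41.7%. Such a peak also lay near 3 of 4 T cell, 2 of 4 endothelial, 2 of 3 dendritic cell, 1 of 4 B cell, 1 of 3 stellate cell and 0 of 6 Kupffer cell or macrophage markers, and near 3 of the 42 H2 genes. Beside the same 54.1%, promoters of Kupffer cell or macrophage markers had a peak at 0 of 6 genes, B cell markers at 0 of 4, T cell markers at 0 of 4 and endothelial markers at 0 of 4, while dendritic cell markers had one at 1 of 3 (Zbtb46) and stellate cell markers at 2 of 3 (Lrat and Reln). The part that these other cell types have in the class II result was not tested.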

How the data were processed

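The deposited data are 2 peak lists of female mouse liver, one for CTCF and one for Rad21. Reads had been aligned by the authors with Bowtie2 (build mm9), alignments that were not unique had been dropped, and MACS2 had been run on 1 pool of libraries per antibody. Blacklisted regions had been filtered out, together with peaks consisting of duplicate reads alone. The values used as deposited are the fold enrichment at the summit, a ratio over local background, and −log10 q. The score column that the authors give was not needed. Peaks below the calling threshold are not listed, so absence from a list does not show absence of binding. The lists hold no column of a single library. The ChIP read length is not given in the sources used here, and depth was not used.

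Members and gene lists were chosen with earlier results of these data known. Peaks were matched to GENCODE genes of mm9 with pandas 2.3.3 and numpy 2.4.6 in Python 3.11.15, and sequence was read with pysam 0.24.0. A promoter is 1 kb on either side of the gene start. The CTCF motif, 20 bases wide, was learned from 1000 peaks and called at 13.0 bits or more, a score reached in 1% of 55849 flanking windows. A stretch of 50 bases was called repeated where it occurred again in the genome on either strand. Shares have Wilson intervals and medians intervals from order statistics, at the 95% level (scipy 1.17.1). No test was made, because each list is 1 pool. Peak overlap and motif learning were tested on simulated data, and the matching of 50-base stretches on a random sequence. The other steps were not tested in this way.

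Named were all class II genes, H2-K1, H2-D1, every other H2 gene with a promoter peak, the 12 strongest CAC peaks other than a site not reported here, the 3 strongest Lone CTCF and CNC peaks, and peaks at H2 promoters and between class II genes. Genes without peaks, Brd2, Rgl2 and the recurring motif sites were named after their values were seen. The search for recurring motifs was also added then. Alternatives were other extensions, promoter widths, peak thresholds, overlap rules and motif settings. Male lists were not analysed here.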

Additional observations from a re-analysis of the deposited data

How the results depend on the processing

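Settings were changed one at a time. With summits required within 100 bp, CAC fell to 53.8% of CTCF and 76.9% of Rad21 peaks in the windows, beside 60.8% and 60.6% over the autosomes, and with genes extended by 10 kb it was 79.7% of CTCF peaks. With −log10 q of at least 10, all 44 Rad21 peaks left were CAC (100%), so the 3 CNC peaks rest on weak calls, 6 class I and 1 class II promoters had a peak, the median gap was 21589.5 bp, the median fold enrichments were 7.93 (CTCF) and 8.79 (Rad21), and 65.3% of CTCF peaks had a motif. A fold enrichment of at least 5 gave 5 class I and 1 class II promoters and a gap of 23878 bp. At these 2 thresholds the autosomal gaps had medians of 25515.5 and 35540 bp, inside the intervals of the medians in the windows (14083 to 34125 and 15957 to 36021 bp), so the separation from the autosomes was lost. There 47.8% and 38.1% of autosomal protein-coding promoters had a peak, and 80.5% and 83.7% of autosomal Rad21 peaks were CAC. Promoters of 2.5 kb gave 4 class II genes, and a 5% background rate gave motifs at 64.5%. Promoter counts without the genes whose promoter is over 20% repeated, an alternative added after seeing the data, were 9 of 23 class I and 2 of 10 class II genes. In all, 15 of 40 recomputed values moved outside the interval of the value reported or, for promoter counts, by over 1.5 times. No paired analysis was possible because each list is 1 pool with no column for a library, and for the same reason no library could be left out.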
